A study of Mus musculus with 24 samples.

Results

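The genes described here code for the protein folding machinery of the endoplasmic reticulum (ER) and for ER-associated degradation (ERAD), the route by which misfolded proteins leave the ER. They were 40 genes, 29 for folding (chaperones, co-chaperones, disulfide enzymes, lectins and prolyl isomerases) and 11 for degradation, and were found by an exact match of their symbols to the gene names in the scanner files, which hold 37074 gene names. All 40 had a probe on the array, and 39 had at least 1 probe bright enough to be tested (28 folding and 11 degradation genes, of 20192 gene names tested). The remaining gene, Fkbp11, a prolyl isomerase, was well above background on only 8 of the 24 arrays, spread over the groups as 3 of 9, 3 of 8 and 2 of 7. Liver RNA was measured in 24 fasting male C57Bl6J mice of the third generation, 1 single-colour Agilent array per mouse. The reference group (9 mice) came from the lineage given high-oleic sunflower oil, labelled control fatty acid, and was fed a low-fat diet. The HFoleic group (8 mice) came from the same lineage and was fed a high-fat, high-sucrose diet, whereas the HFepa group (7 mice) was fed that diet but descended from mice given an oil with a high content of eicosapentaenoic acid (EPA), from fish. Low-fat mice of EPA descent were not analysed here, so that lineage and diet cannot be told apart in the comparison of HFepa with reference.

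Hepatocytes secrete most plasma proteins, and these are folded in the ER before they leave the cell. Nascent chains are held by the Hsp70 protein BiP (Hspa5) and the Hsp90 protein Grp94 (Hsp90b1), glycoproteins are bound by the lectins calreticulin and calnexin, and disulfide bonds are formed by protein disulfide isomerases. Chains that do not fold are recognised by mannosidases and lectins, pulled through a membrane channel built around the ligase Hrd1 (Syvn1) and destroyed in the cytosol. When unfolded chains accumulate, the sensors of the unfolded protein response raise the transcription of many of these genes, in part through the factors ATF6 and XBP1, which bind ER stress response elements in the promoters.

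The promoters of the members were searched for such elements. The sequences are shown here because 12 of the 14 members with a match are among those that rose in HFoleic, described below. Among all 34 members whose promoter was searched, 19 rose. Of these 19, 12 had a match, against 2 of the 15 that were not called or not tested. Whether a match goes with the rise was not tested. RefSeq promoter windows (GRCm38.p6, 250 bases before to 50 after the annotated start) were found for 34 of the 40 members, among them Ero1l and Ero1lb under their present symbols Ero1a and Ero1b. No window was found for Hspa13, Hyou1, Sil1, Manf, Derl1 and Erlec1. The windows were searched on both strands for the exact letters of ERSE (CCAAT and CCACG with any 9 bases between them), ERSE-II (ATTGG and CCACG with any 1 base between them) and the UPRE core (TGACGTGG). ERSE was found in 10 of the 34 members (29.4%), against 0.137% of the 27025 genes with a window. ERSE-II was found in Herpud1 and Dnajb11, and the UPRE core in Txndc5 and Txndc11, against 0.0444% and 0.714% of all genes. At least 1 of the motifs stood in 14 of the 34 members (41.2%), against 0.884% of all genes. By class, the share was 11 of 25 folding genes and 3 of 9 degradation genes. A match is a description of letters, and its absence says nothing of the factor. The 7 stretches printed belong to the members described in full below that had a match. They read 5′ to 3′ on the strand of the gene and end before the start, and capitals mark the motif (ERSE in all but Herpud1, where it is ERSE-II).
Hspa5 (chr2:34771970-34772053, plus strand): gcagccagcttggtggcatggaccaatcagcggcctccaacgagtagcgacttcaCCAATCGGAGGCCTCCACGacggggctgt
Pdia6 (chr12:17266469-17266528, plus strand): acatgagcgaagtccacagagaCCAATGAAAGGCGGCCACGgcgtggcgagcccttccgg
Creld2 (chr15:88819510-88819569, plus strand): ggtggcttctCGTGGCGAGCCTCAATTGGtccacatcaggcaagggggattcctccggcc
Calr (chr8:84847044-84847103, minus strand): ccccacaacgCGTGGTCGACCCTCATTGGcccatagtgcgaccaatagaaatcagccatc
Herpud1 (chr8:94386309-94386397, plus strand): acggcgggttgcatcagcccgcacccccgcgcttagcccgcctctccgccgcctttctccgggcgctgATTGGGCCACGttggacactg
Syvn1 (chr19:6046456-6046560, plus strand): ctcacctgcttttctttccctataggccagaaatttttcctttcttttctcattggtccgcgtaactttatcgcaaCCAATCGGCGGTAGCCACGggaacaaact
Derl3 (chr10:75893232-75893291, plus strand): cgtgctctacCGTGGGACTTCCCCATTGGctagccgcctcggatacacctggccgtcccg

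In Creld2, Calr and Derl3 the element was found in the reverse direction, so its letters there start with CGTGG and end with ATTGG. Hsp90b1, which codes for Grp94, was the only member with 2 ERSE matches in its window. In Dnajb11 the match lay after the start and is not printed.

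**Figure D1:**
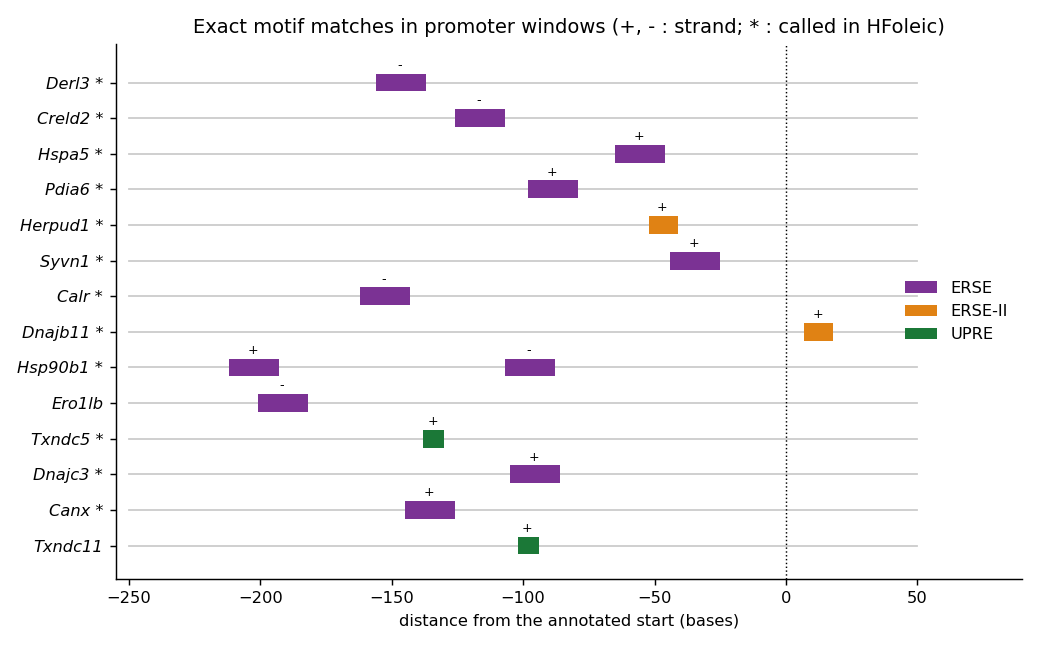
Positions of the exact motif matches in the promoter windows of the 14 members that had one, in bases from the annotated start (dotted line); grey lines span the searched window, the sign gives the strand of the match and an asterisk marks a gene called higher in HFoleic. Of the 14 genes, 12 carry an asterisk, where 19 of all 34 members with a window were called higher. Of the 14, 13 have their matches before the start.

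The liver could be recognised in all groups. The 10 hepatocyte markers (Alb, Apoa1, Ttr and others) were all tested, and the log2 of their summed signal ranged from 20.45 to 20.59 over the 24 mice. Cps1 and Tat of that list, a urea cycle enzyme and tyrosine aminotransferase, were lower in HFoleic than in reference by limma (log2 fold changes -0.89, adjusted p = 0.00166, and -0.63, adjusted p = 0.00858). Cell types that express the members strongly were looked at through their own markers. Of 13 plasma and B cell markers, 9 were tested, and their summed signal was 12.04 to 13.06 in reference, 11.78 to 12.09 in HFoleic and 11.97 to 12.35 in HFepa. Only Sdc1, which hepatocytes also express, was called in that list. It was lower in HFoleic (-0.75, limma adjusted p = 0.000367) and in HFepa (-0.54, adjusted p = 0.0282), where the call was lost without HFepa replicate 1, 2, 4, 6 or 7 or reference replicate 1 or 2. Cd79a, Tnfrsf17 and Irf4 were too dim to be tested, and no probe carried the name Igj. The 11 exocrine pancreas markers had 6 tested members, none of them called, with a summed signal of 12.52 to 13.49, 12.54 to 14.02 and 12.55 to 13.38 in the same order. Cela3b, Cpa1, Cpb1, Pnlip and Prss2 were not tested. Of the other cell types, adipocyte, cholangiocyte and stellate cell markers each held 1 call in HFoleic, and Kupffer cell, endothelial and neutrophil markers held 0. Of 5 tested adipocyte markers, Cidec was lower in HFoleic (-1.72, adjusted p = 0.0243, lost without HFoleic replicate 2 or 8 or reference replicate 1), and their summed signal was 12.43 to 14.38 in reference, 10.79 to 14.09 in HFoleic and 10.95 to 13.27 in HFepa, while Adipoq was too dim to be tested. The 5 did not move together in HFoleic against reference, with 2 above 0 (up to 0.75), 3 below and a median of -0.01. Sox9 was lower among 4 cholangiocyte markers (-0.65, adjusted p = 0.0279, lost without HFoleic replicate 7 or 8), whose sum was 10.45 to 13.40, 10.79 to 11.42 and 10.66 to 11.72. Lrat was higher among 10 stellate cell markers (0.56, adjusted p = 0.0015), whose sum was 14.13 to 16.03, 14.27 to 14.91 and 14.46 to 14.95. Most of that list went the other way in HFoleic against reference, with 4 of the 10 above 0, 6 below and a median of -0.11. The part of these markers in the values of the members was not tested. These are bulk livers, so fewer cells of a type and less RNA per cell cannot be told apart.

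HFoleic was first set against reference, which addresses the effect of the obesogenic diet within the oleic lineage. Genes of nearly all roles in ER folding rose, and so did all but 1 of the ligase and channel genes of ERAD. By limma at an adjusted p under 0.05, 22 of the 39 tested members were higher in HFoleic and 0 were lower, whereas 4.52% of all tested genes were called higher, 3.55% lower and 8.07% in either direction. The members were chosen with earlier results of these data known, so setting these shares side by side is a description and not a test. The fold change was above 0 in 36 of the 39 members, against 48.4% of all genes. Folding genes gave 17 of 28 calls with a median log2 fold change of 0.46, degradation genes gave 5 of 11 with a median of 0.33, and the median over all genes was -0.01. Among members, 5 of 39 had no overlap between the groups (Pdia6, Pdia4, Hsp90b1, Canx and Derl2), against 0.579% of all genes.

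**Figure D2:**
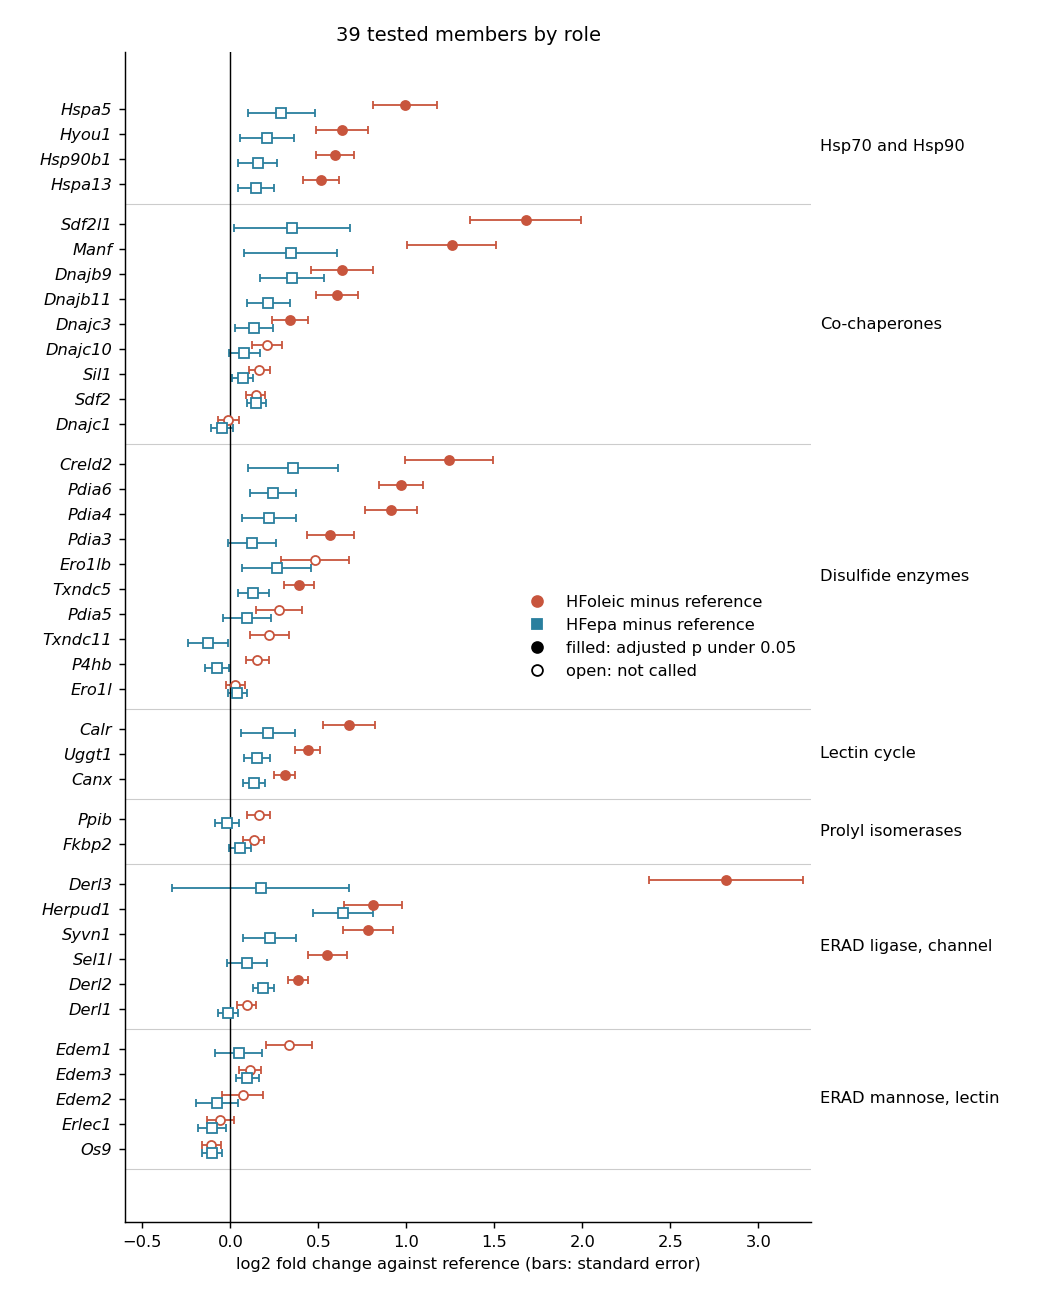
Log2 fold change against reference of the 39 tested members, grouped by role, for HFoleic (circles) and HFepa (squares), with standard errors from the limma fit; filled symbols are called at an adjusted p under 0.05. All 22 filled symbols are circles, with Derl3 farthest to the right at 2.81, and Herpud1 is the member whose square lies farthest to the right, at 0.64.

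The Hsp70 and Hsp90 chaperones all rose in HFoleic. Hspa5, which codes for BiP (probe at chr2:34631913-34631972, mouse build mm9), had a normalized log2 signal of 13.86 in the lowest, 14.70 in the median and 15.10 in the highest reference mouse, of 15.05, 15.70 and 16.15 in HFoleic, and of 14.40, 14.83 and 15.66 in HFepa. All but 1 of the 8 HFoleic mice lay above every reference mouse, while HFepa overlapped both groups. The difference from reference was 0.99 ± 0.18 on the log2 scale (SE, limma adjusted p = 0.00234), a fold of 1.99. Hyou1, an ER Hsp110 protein that recharges BiP with nucleotide, rose by 0.64 ± 0.15, Hsp90b1 by 0.60 ± 0.11 and Hspa13, a small Hsp70-like protein, by 0.51 ± 0.10.

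Co-chaperones, which set the cycle of BiP, were divided. Of 9, 5 rose and 4 were not called. Sdf2l1, which forms a complex with BiP and J proteins (chr16:17130426-17130485, mm9), had log2 signals of 7.43, 8.75 and 9.50 in the lowest, median and highest reference mouse, of 9.18, 10.34 and 11.54 in HFoleic, and of 7.97, 8.98 and 9.77 in HFepa. In HFoleic, 6 of 8 mice exceeded all reference mice, and the mean was higher by 1.68 ± 0.32 (adjusted p = 0.00254), a fold of 3.20. Manf, a secreted ER protein that binds BiP (chr9:106792505-106792564, mm9), ran from 9.65 through 11.06 to 11.79 in reference, from 11.50 through 12.23 to 12.98 in HFoleic and from 10.55 through 11.30 to 11.96 in HFepa. The same number of HFoleic mice, 6, lay above the reference range, and the difference was 1.26 ± 0.25 (adjusted p = 0.00403). The J proteins Dnajb9, Dnajb11 and Dnajc3 rose by 0.63 ± 0.18, 0.61 ± 0.12 and 0.34 ± 0.10, with adjusted p of 0.0266, 0.0034 and 0.0456. Dnajc3 kept its call in 9 of the 24 fits that left out a mouse, and Dnajb9 in 20 of them, the exceptions being those without HFoleic replicate 3, 4 or 7 or reference replicate 1. Not called were Dnajc10 (0.21), a J protein with disulfide reductase domains, the nucleotide exchange factor Sil1 (0.17), Sdf2 (0.14), the paralog of Sdf2l1, and the membrane J protein Dnajc1 (-0.01).

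Of the 10 disulfide enzymes, 5 rose in HFoleic. Creld2, an ER protein with disulfide isomerase activity (chr15:88656997-88657056, mm9), had log2 signals of 11.45, 12.93 and 13.34 in the lowest, median and highest reference mouse, of 13.04, 14.06 and 14.90 in HFoleic, and of 12.66, 12.93 and 13.67 in HFepa. It exceeded the reference range in 6 of 8 HFoleic mice, with a difference of 1.24 ± 0.25 (adjusted p = 0.00391). For Pdia6, a disulfide isomerase that works with BiP (chr12:17291070-17291129, mm9), the values were 13.42, 13.87 and 14.19 in reference, 14.41, 14.84 and 15.18 in HFoleic, and 13.70, 14.13 and 14.56 in HFepa. Reference and HFoleic did not overlap, and the adjusted p of 0.000253 was the smallest among the members (difference 0.97 ± 0.13). Pdia4, another isomerase (chr6:47746516-47746575, mm9), gave 8.98, 9.49 and 10.13 in reference, 10.18, 10.53 and 11.04 in HFoleic, and 9.46, 9.83 and 10.23 in HFepa. Here too the 8 HFoleic mice lay above all 9 reference mice (difference 0.91 ± 0.15, adjusted p = 0.00093). Pdia3, the isomerase that serves calnexin and calreticulin, rose by 0.57 ± 0.13, and Txndc5 by 0.39 ± 0.08. The ERO1 oxidases that recharge the isomerases were not called, at 0.48 ± 0.19 for Ero1lb (adjusted p = 0.134) and 0.03 ± 0.05 for Ero1l. P4hb, the founding disulfide isomerase, stood at 0.15 ± 0.07 (adjusted p = 0.171), Pdia5 at 0.28 and Txndc11 at 0.22, without a call.

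All 3 genes of the calnexin and calreticulin cycle rose. Calr, calreticulin (chr8:87366192-87366251, mm9), had log2 signals of 12.11, 13.00 and 13.37 in the lowest, median and highest reference mouse, of 13.19, 13.61 and 14.11 in HFoleic, and of 12.79, 12.93 and 13.47 in HFepa. The groups overlapped, with 5 of 8 HFoleic mice above the reference range and a difference of 0.67 ± 0.15 (adjusted p = 0.00663). Uggt1, the glucosyltransferase that returns unfolded glycoproteins to the lectins, rose by 0.44 ± 0.07, and Canx, calnexin, by 0.31 ± 0.06. The 2 tested prolyl isomerases were not called, Ppib, cyclophilin B, at 0.16 and Fkbp2 at 0.13. Without the filter on dim probes, the third, Fkbp11, differed by 0.18 (adjusted p = 0.589).

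**Figure D3:**
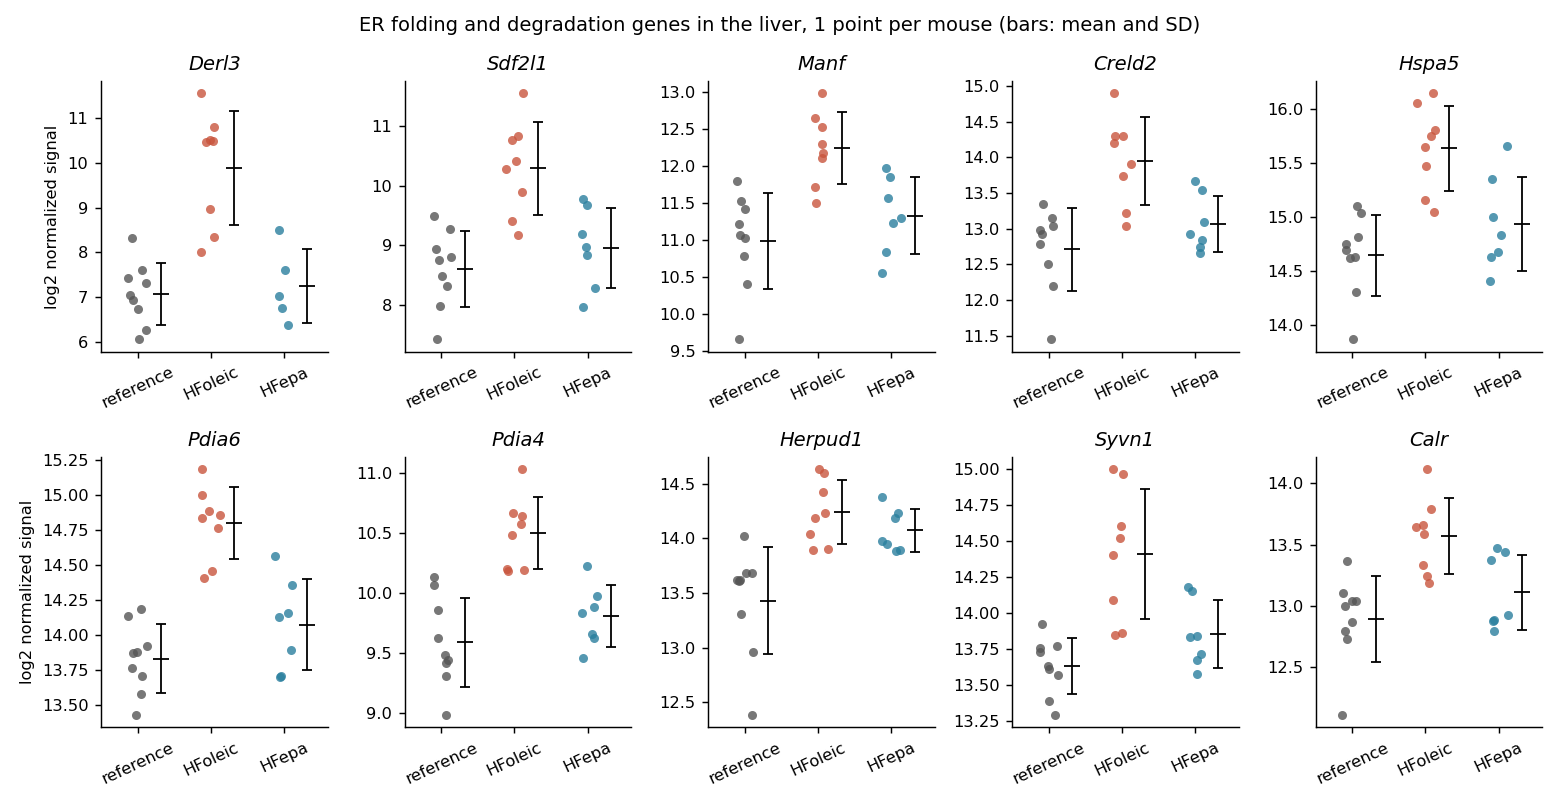
Normalized log2 signal of the 10 members described in full, 1 point per mouse, in reference (9 mice), HFoleic (8 mice) and HFepa (7 mice, 5 for Derl3); bars beside the points give mean and SD, and each panel has its own axis. HFoleic lies highest in each panel, without overlap with reference for Pdia6 and Pdia4, and HFepa lies near reference except for Herpud1.

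The degradation genes were split by role. Of the 6 genes of the ligase and channel, 5 rose. Of the 5 mannosidases and lectins among the members, which select the substrates, 0 were called. Derl3, a channel protein of the derlin family (chr10:75358606-75358665, mm9), had the largest fold change of all members. It had log2 signals of 6.05, 7.04 and 8.31 in the lowest, median and highest reference mouse, of 8.01, 10.48 and 11.56 in HFoleic, and of 6.37, 7.02 and 8.50 in the 5 HFepa mice with a value. In HFoleic, 7 of 8 mice were above the reference range, yet their SD of 1.28 was wide, against 0.69 in reference. The difference from reference was 2.81 ± 0.44 (adjusted p = 0.000838), a fold of 7.03. The spot of Derl3, a gene with 1 probe, was marked as an outlier by the scanner software in HFepa replicates 2 and 5 and left out there. Before normalization these spots read 9.19 and 9.80, above the 5 that were kept (6.27 to 8.55), so leaving them out lowered the HFepa mean.

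Herpud1, a membrane protein of the ligase complex (chr8:96919117-96919176, mm9), ran from 12.38 through 13.62 to 14.02 in reference, from 13.89 through 14.21 to 14.63 in HFoleic and from 13.89 through 13.98 to 14.38 in HFepa. Both high-fat groups lay high, with 6 of 8 HFoleic and 3 of 7 HFepa mice above the reference range. Herpud1 was higher in HFoleic by 0.81 ± 0.17 (adjusted p = 0.00432). Syvn1, the ligase Hrd1 (chr19:6053568-6053627, mm9), gave 13.29, 13.63 and 13.92 in the lowest, median and highest reference mouse, 13.85, 14.46 and 15.00 in HFoleic, and 13.58, 13.83 and 14.18 in HFepa. For 6 of 8 HFoleic mice the value lay above the reference range (difference 0.78 ± 0.14, adjusted p = 0.00233). Sel1l, the adaptor of Hrd1, rose by 0.55 ± 0.11 and Derl2 by 0.39 ± 0.06, the latter without overlap of the groups, while Derl1 stood at 0.09 ± 0.05 without a call. Among the mannosidases Edem1 reached 0.33 ± 0.13 (adjusted p = 0.13), Edem3 0.11 and Edem2 0.07, and the lectins Erlec1 and Os9 stood at -0.06 and -0.11.

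The further genes of the pathway did not all move with the members. Of 19 other ER folding genes that were tested (such as Erp29, Erp44 and the glucosidase subunits), 0 were called in HFoleic by limma, with a median of 0.02, and 8 had an unadjusted p under 0.05, against 22.3% of all genes. Among 19 further tested ERAD genes (such as the cytosolic segregase Vcp), 2 rose, Selk by 0.28 and the mannosidase Man1b1 by 0.16. That share was close to the 8.07% of all genes called, and Man1b1 was called in only 4 of the 24 fits that left out a mouse. Of 16 regulators of the unfolded protein response, 2 were called higher by limma and 1 lower, against 4.52% and 3.55% of all genes. Xbp1 rose by 0.68 ± 0.11 (adjusted p = 0.000769). Creb3l2, a related transcription factor, rose by 0.47 ± 0.15 (adjusted p = 0.0485, called in 5 of the 24 fits without a mouse). Mbtps2, a protease that activates ATF6, fell by 0.23, a call kept in 21 of the 24 fits without a mouse and under 10 of 13 alternatives. Translocation and transport genes of the ER gave 7 calls of 27, all higher, against 4.52% of all genes called higher. They were led by the channel subunit Sec61b (0.42), the coat protein Sec23b (0.38) and the signal peptidase subunit Spcs3 (0.32). Of the 7, Spcs3, Sec61a1 and Rpn1 were called in only 20, 17 and 7 of the 24 fits without a mouse. Under the 13 alternatives they were called in 10, 9 and 6, and Sec23b in 11.

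HFepa was then set against the same reference mice, from which it differed in both diet and lineage. None of the 39 members was called by limma, where 0.391% of all genes were called (0.198% higher and 0.193% lower). At an unadjusted p under 0.05 there were 4 members (10.3%), a smaller share than among all genes (2827 of 20192). The fold change was above 0 in 31 of 39 members, against 50.3% of all genes, with medians of 0.15 over the folding genes and 0.09 over the degradation genes. Herpud1 came nearest to a call, at 0.64 ± 0.17 (adjusted p = 0.0855), and all 7 HFepa mice lay above the reference mean. Its second probe gave 0.73 (adjusted p = 0.0981). Without reference replicate 8, Herpud1 was called, at 0.71 (adjusted p = 0.0296). The other members named in full were between 0.17 and 0.36, among them Hspa5 at 0.29 ± 0.19, Sdf2l1 at 0.35 ± 0.33, Pdia6 at 0.24 ± 0.13 and Syvn1 at 0.22 ± 0.15. Derl3 stood at 0.17 ± 0.50, and at 0.79 (adjusted p = 0.556) when the outlier-marked spots were kept, an alternative chosen after seeing the data. Within slide 3 the median of the folding genes was -0.10, against 0.25 and 0.21 within the other slides.

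The high-fat groups were also compared directly, which addresses the lineage at 1 diet. By limma 0 of 39 members were called, as were 0.0% of all genes. At an unadjusted p under 0.05 there were 22 members, against 9.96% of all genes. The difference was below 0 in 36 of 39 members, where 51.9% of all genes lay above 0, and the medians were -0.29 over the folding genes and -0.17 over the degradation genes. Within slides 1, 2 and 3 the median of the folding genes was -0.35, -0.11 and -0.44. On slide 2, 9 of 28 folding genes lay above 0, against 1 on each of the other slides. This comparison shares the HFoleic mice with the first, so a low value here and a high value there are not separate observations. The smallest p belonged to Pdia6 (-0.73 ± 0.14, adjusted p = 0.104), Derl3 (-2.64 ± 0.51, adjusted p = 0.104) and Pdia4 (-0.69 ± 0.16, adjusted p = 0.12). For Pdia6 and Pdia4, 6 of 7 HFepa mice lay below every HFoleic mouse. With its outlier-marked spots kept, Derl3 differed by -2.02 (adjusted p = 0.204). Pdia6 was called without HFoleic replicate 6 (-0.78, adjusted p = 0.0474) and without HFepa replicate 5 (-0.81, adjusted p = 0.0183), and Derl3 without HFoleic replicate 6 (-2.86, adjusted p = 0.0474). Herpud1 differed by -0.17 ± 0.18 (adjusted p = 0.8).

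Among the cytosolic heat-shock genes, the chaperones of the cytosol, calls were found in both high-fat groups. Of the 16 tested, 7 rose in HFoleic and 4 rose in HFepa, against 4.52% and 0.198% of all genes called higher. The HFoleic count was 6 to 8 when each mouse was left out, whereas the HFepa count was 0 to 8. It was 0 without HFepa replicate 1, 2, 6 or 7 or reference replicate 1 or 2, and also with the clock score, without the filter on dim probes and by the methods' t-test. Hspb1, a small heat-shock protein, rose by 0.68 ± 0.16 in HFoleic and by 0.82 ± 0.17 in HFepa, and Hsph1, a cytosolic Hsp110, by 0.60 ± 0.14 and 0.71 ± 0.14. Dnajb1, the J protein of cytosolic Hsp70, rose in HFepa (0.74 ± 0.13, adjusted p = 0.0245) and was not called in HFoleic (0.37 ± 0.13, adjusted p = 0.0824). The direct difference between the high-fat groups was not called for any of them.

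**Figure D4:**
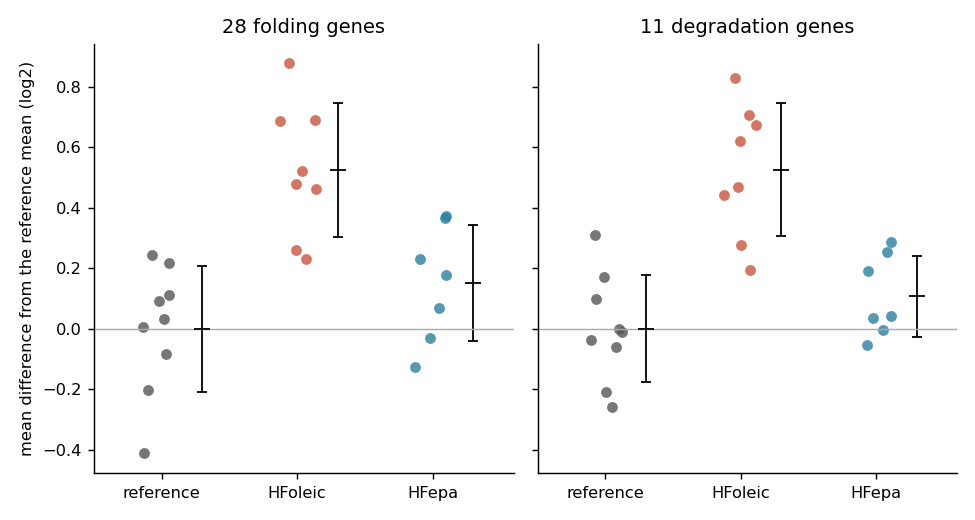
Mean difference of the 28 folding genes and of the 11 degradation genes from the reference mean, on the log2 scale, 1 point per mouse with mean and SD beside the points. HFepa replicates 2 and 5 have no Derl3 value, so their degradation points are without that gene. HFoleic mice range from 0.23 to 0.88 for folding genes, and HFepa mice from -0.13 to 0.37 within a reference range of -0.41 to 0.24 and above it.

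The members were also followed from mouse to mouse. Averaged over the folding genes, the difference from the reference mean was 0.53 ± 0.22 in HFoleic and 0.15 ± 0.19 in HFepa (SD), with an SD of 0.21 among reference mice. For the degradation genes it was 0.53 ± 0.22 and 0.11 ± 0.13. In HFepa replicates 2 and 5 this mean is without Derl3, whose outlier-marked spots were left out. Before normalization those spots read 9.19 and 9.80, above the HFepa spots that were kept, so leaving them out lowered the means of these mice. In HFoleic the degradation mean is weighted by Derl3, at 2.81. The median fold change there was 0.33 over the degradation genes and 0.46 over the folding genes. The same mice lay at the ends for many genes: HFoleic replicate 2 was the highest of its group for 23 of 39 members and replicate 6 the lowest for 17, reference replicate 5 was the lowest for 22, and in HFepa replicate 5 was the highest for 17 and replicate 4 the lowest for 19. After the group means were taken out, the correlation between 2 members across the 24 mice had a median of 0.44 over 741 pairs, with 0.53 among folding genes and 0.21 among degradation genes. This is a description, since all genes of a mouse share its array. Manf had the highest median correlation with the other members (0.74), followed by Hspa13 and Dnajb11 (0.69 and 0.68), whereas Os9 and Dnajc10 were at -0.05 and -0.08.

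A score of clock genes (Bmal1-phase minus Per-phase genes, log2) was -0.04 ± 0.54 in reference, -0.85 ± 0.69 in HFoleic and -0.62 ± 1.03 in HFepa (SD). The ranges overlapped (-0.92 to 0.70, -1.80 to 0.18 and -2.36 to 0.59 in the same order), and a difference of the score between groups was not tested. With this score as a covariate the same 17 folding and 5 degradation genes were called in HFoleic, while the calls over all probes fell from 2170 to 950. Within each slide the median folding gene was higher in HFoleic than in reference, by 0.67, 0.32 and 0.30, and in the slide rows by 0.50 and 0.31.

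Probes of the same gene did not always run together. Among the 21 members with several tested probes, 5 had fold changes of both signs in HFoleic against reference. In each of the other comparisons 7 of them did. Of the 21 members with several tested probes, 8 were called in HFoleic by all of them, 3 by some and 10 by none, where 7.23% of all probes were called. The 3 were Hyou1, Dnajb11 and Sel1l, and in each the probes without a call were dimmer than those called. Of the 4 probes of Hyou1, those at chr9:44199084-44199143, chr9:44199354-44199413 and chr9:44197162-44197329 (mm9) rose by 0.64, 0.73 and 0.48 in HFoleic and stood at 0.21, 0.15 and 0.05 in HFepa. The dimmest, at chr9:44193855-44193914, stood at 0.07 in HFoleic and was called in HFepa, where it was higher by 0.999 (adjusted p = 0.0467), against 0.393% of all probes called there. That call held in only 7 of the 24 fits that left out a mouse and in 3 of 11 alternatives, with adjusted p up to 0.174. It was singled out after its values were seen, and was well above background on 21 of 24 arrays. For Dnajb11, the probe at chr16:22879612-22879671 stood at -0.05 in HFoleic while the others rose by 0.61 and 0.55. For Sel1l the probe at chr12:93080006-93080065 stood at 0.03 in HFoleic and 0.37 in HFepa, against 0.55 and 0.09 for the brightest probe. Its remaining probe, at chr12:93044483-93044528, stood at 0.24 in HFoleic (adjusted p = 0.166) and was not called either. Which transcripts these probes read was not tested.

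**Figure D5:**
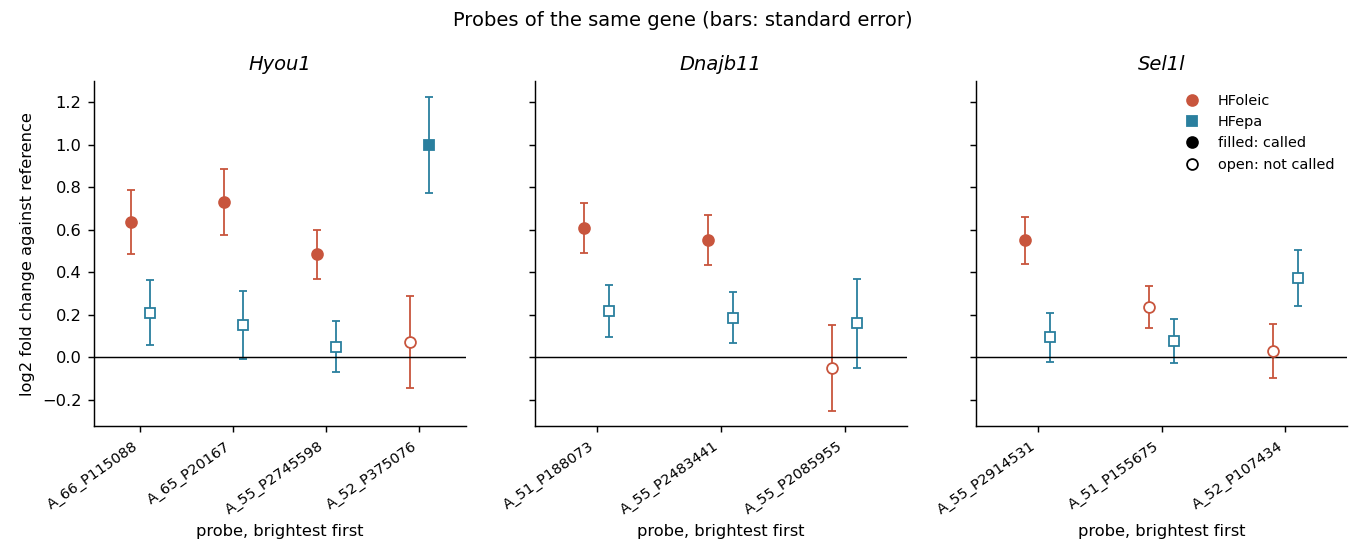
Log2 fold change against reference of each tested probe of Hyou1, Dnajb11 and Sel1l, brightest probe first, in HFoleic (circles) and HFepa (squares), with standard errors; filled symbols are called. The dimmest probe of each gene lies near 0 in HFoleic, and that of Hyou1 is at 0.999 in HFepa.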

How the data were processed

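Liver RNA of 24 mice was hybridised to 24 single-colour (Cy3) Agilent arrays. Per the file headers, the authors deposited for each array the median spot signal and local background as intensity values without normalization, read by Agilent Feature Extraction 10.10.1.1. A second file deposited by the authors holds quantile-normalized log2 values of a filtered probe set, with a correlation to the scanner values of each array of at least 0.99968. Each array held 56605 probes, of which 28804 to 34432 were well above background, 0 spots were saturated, and the number of arrays limits the precision.

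Here the log2 median signal was averaged over each probe's spots, leaving out those marked as outliers (134 to 627 per array). A probe was tested if 75% or more of a group's arrays had it well above background (30003 probes), and values were quantile normalized. Groups came from the labels. A limma 3.58.1 group-means model in R 4.3.3 over all 24 mice gave 3 contrasts, two-sided, with Benjamini-Hochberg adjustment over all tested probes and calls at an adjusted p under 0.05. A gene was read from its brightest tested probe. The fit was tested on simulated data. Tables and figures used data.table (1.17.8), Python 3.11.15, pandas 2.3.3, numpy 2.4.6 and matplotlib 3.10.9.

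The 10 members described in full are those with the largest change among the calls in HFoleic, which also hold the 3 with the smallest p between HFepa and HFoleic. The members and gene lists were chosen with earlier results of these data known. The 12 alternatives fixed at the start were the deposited table, the processed signal scaled to its 75th percentile, normexp correction (offset 50), no filter and a strict filter on dim probes, the mean of the tested probes, slide, slide row and replicate number as blocks, the clock score as a covariate, fits of only the groups compared, and the methods' t-test, besides leaving out each mouse. Keeping outlier-marked spots was added after seeing the data. Nothing in the labels says that replicate numbers pair the mice. Of 22 same-numbered pairs of mice, 3 correlated above 0.1 (mean -0.003), against 41 of 169 differently numbered pairs (mean 0.002). Such correlations cannot show whether the mice were matched. Probe positions are those of the scanner files (mm9), promoters are RefSeq windows of GRCm38.p6, and neither was converted to the other build.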

Additional observations from a re-analysis of the deposited data

Results flagged for a closer look

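In the reference group, Calr had a log2 signal of 12.11 in replicate 5, while the other 8 mice lay between 12.73 and 13.37, a gap wide enough to stand out by Dixon's test. It was the only one to do so among 30 groups of values (10 genes in 3 groups), where chance gives about 1 in 20. The same mouse was the lowest of its group for 22 of the 39 members. Without it, the counts of members called in HFoleic were 17 folding and 5 degradation genes, as with it. The folding genes called were not all the same, since Dnajc3 lost its call without this mouse.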

How the results depend on the processing

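The count of folding genes called in HFoleic, 17, was 15 to 17 under the 13 alternatives and 15 to 17 when each mouse was left out, and the count of degradation genes, 5, was 4 to 5 and 5 to 6. The 10 members described in full were called in HFoleic under all 13 alternatives and in all 24 fits without a mouse, with adjusted p from 5.86e-05 to 0.0383. The counts of 0 for HFepa against reference stayed at 0 under the alternatives and ranged from 0 to 0 (folding) and from 0 to 1 (degradation) without single mice. For HFepa against HFoleic they also stayed at 0 under the alternatives and ranged from 0 to 1 in both classes without single mice. The mice that moved these counts off 0 were reference replicate 8 (Herpud1), HFoleic replicate 6 (Pdia6 and Derl3) and HFepa replicate 5 (Pdia6), and the cause was not tested. The difference of Derl3 between HFepa and reference turned to -0.14 (adjusted p = 0.947) without HFepa replicate 3, within -0.14 to 0.39 over the 24 fits without a mouse. With the replicate number as a block, 16 folding and 5 degradation genes were called in HFoleic and 0 members in the other comparisons. Since the labels do not say that the numbers pair the mice, this block has no stated basis in the design. Over all probes the calls in HFoleic, 2170, were 950 with the clock score as a covariate, while those in HFepa, 118, were 4 with the clock score, 13 in a fit of only the groups compared, 60 with the processed signal and 0 without the filter on dim probes (4845 at an unadjusted p under 0.05) or with the methods' t-test (3472). Leaving out 1 mouse moved the 118 from 0 (without HFepa replicate 2 or 6 or reference replicate 2) to 497 (without reference replicate 8), and the 2170 from 1600 to 3090.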
